A study of Mus musculus with 16 samples.

Results

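The Hox genes of the mouse encode homeodomain transcription factors and lie in 4 clusters, named Hoxa to Hoxd. The protein-coding genes with a symbol of Hoxa, Hoxb, Hoxc or Hoxd and a number were taken from the basic GENCODE annotation of mm10, which gave 39 genes, with 11 in Hoxa, 10 in Hoxb, 9 in Hoxc and 9 in Hoxd. Of the 80367 regions (peaks) whose accessibility differed between GFPhigh and GFPneg small cell lung cancer (SCLC) cells, the 16 whose centre had one of these genes as the nearest protein-coding transcription start site are described here. A peak was taken by its position alone.

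ATAC-seq measures accessible chromatin, because the Tn5 transposase inserts sequencing adaptors where DNA is not packed away. The cells were sorted from the pooled tumors of single TKO;Hes1 GFP/+ mice. In this model an adenovirus that expresses Cre from the CMV promoter deletes Rb, p53 and p130 in lung cells, and a GFP allele reports Hes1. Both groups carry the deletions and the reporter. GFPhigh cells are the non-neuroendocrine (non-NE) cells and GFPneg cells the neuroendocrine (NE) cells, with 4 libraries of each from 3 mice, 2 of the 4 pairs from 1 mouse (1 of them a technical replicate), and each library on 2 lanes, which makes 16 runs. By the methods of the study, tumors were induced at 8 to 12 weeks of age and isolated about 6 to 7 months later. The authors listed 40828 peaks as more accessible in GFPhigh cells, called opened here, and 39539 as less accessible, called closed. Of the values deposited per peak, the mean normalized count over all libraries is used here, and the columns of the authors' own test are not. No value per library is used, so counts stand without an SD or a test, and the number of reads per library is unknown. A region outside the lists was either not a peak or did not pass the authors' limits, and neither was analysed here.

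The order of Hox genes along a cluster follows the order in which they are used along the body axis, from the low numbers at the anterior end to the high numbers at the posterior end. Hox proteins bind DNA together with cofactors of the TALE class such as Pbx and Meis, and Polycomb complexes keep whole stretches of the clusters silent in cells that do not use them. In the lung, Hox genes of the a and b clusters are known mainly from the developing mesenchyme, with Hoxa5 required for normal airway and alveolar development.

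The clusters differed in direction. All 7 peaks of Hoxa and both peaks of Hoxc were opened, all 7 peaks of Hoxb were closed, and Hoxd had no listed peak. This makes 9 opened and 7 closed peaks, or 56.25% opened (Wilson 95% interval 33.2 to 76.9%, for counting error only), against 50.8% opened and 49.2% closed among all listed peaks. The pooled share was thus near the background, while each cluster with peaks went one way. Peaks of 1 cluster are neighbors on 1 chromosome and are not independent of each other.

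**Figure D1:**
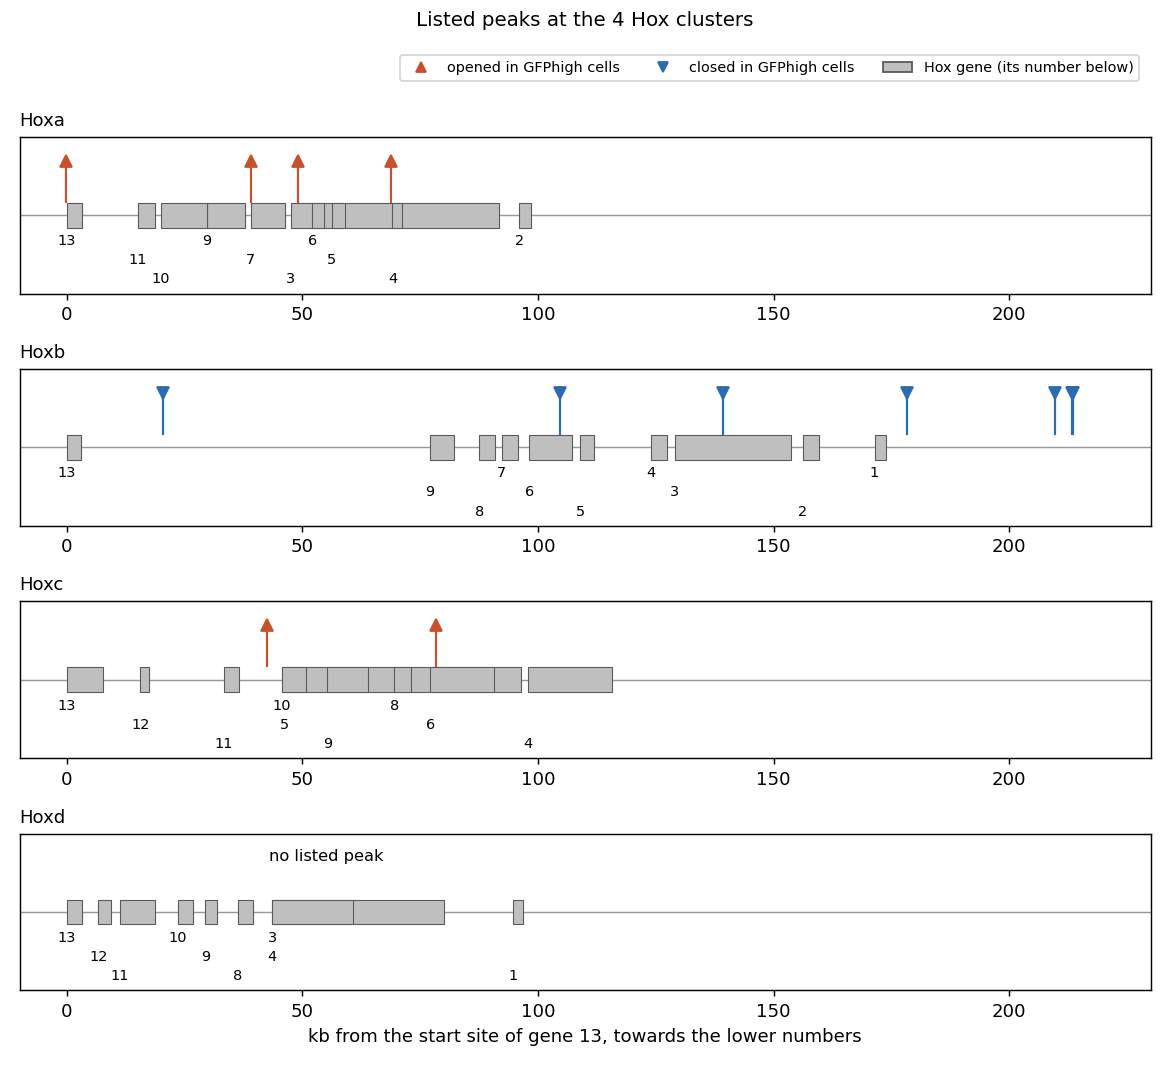
Map of the 4 Hox clusters, with 13 of the 16 listed peaks, 4 of them at Hoxa. The x axis gives the distance in kb from the start site of the gene numbered 13, increasing towards the lower numbers. Grey boxes are the genes described here, with their numbers below the start sites, and triangles are the centres of the peaks, pointing up in red for opened and down in blue for closed. The Hoxa and Hoxc triangles point up, the 7 Hoxb triangles point down, and Hoxd has none.

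Few Hox genes had a listed peak. A peak was nearest to 11 of the 39 genes, or 28.2% (Wilson 95% interval 16.5 to 43.8%), whereas 66.6% of the 21924 protein-coding genes were nearest to at least 1 listed peak. The 16 peaks make 0.410 peaks per Hox gene, against 3.67 listed peaks per protein-coding gene. Hox genes lie close together, which leaves each of them little territory, meaning the sequence nearer to its start site than to that of any other protein-coding gene. By length, the territories of the 39 genes covered 0.8395 Mb and held 1.91 peaks per 100 kb, against 2.95 in the genome. The density was 3.76 peaks per 100 kb at Hoxa, 2.79 at Hoxb, 0.728 at Hoxc and 0 at Hoxd.

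Opened promoter peaks, with the centre within 1 kb of a start site, were found at 3 Hox genes, or 7.69% (Wilson 95% interval 2.65 to 20.3%), against 28.6% of all protein-coding genes. The 3 genes are all in Hoxa, Hoxa4 and Hoxa13 among them, and none of the 28 genes outside Hoxa had an opened promoter peak. A closed promoter peak was found at 1 gene, Hoxb6, which is 2.56% of the 39 (Wilson 95% interval 0.454 to 13.2%), against 8.64% of all protein-coding genes. Both shares of Hox genes were below those of all genes.

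The sequences of 6 peaks are shown because they have the highest mean normalized count of their cluster, hold one of the motifs searched, or lie at a start site. They were read from the + strand of GRCm38 (mm10), 5′ to 3′, and capitals mark a motif match.
The opened peak in the intron of Hoxa3, chr6:52211643-52211832, holds the posterior HOX string on the opposite strand.
Hoxa3 intron peak: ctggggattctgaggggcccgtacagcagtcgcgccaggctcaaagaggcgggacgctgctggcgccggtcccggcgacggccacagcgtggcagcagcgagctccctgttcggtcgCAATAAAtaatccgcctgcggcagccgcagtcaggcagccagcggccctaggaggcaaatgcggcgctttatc
The part of the opened Hoxa13 peak that lies upstream of the start site, chr6:52260881-52261081, holds none of the motifs.
Hoxa13 promoter peak: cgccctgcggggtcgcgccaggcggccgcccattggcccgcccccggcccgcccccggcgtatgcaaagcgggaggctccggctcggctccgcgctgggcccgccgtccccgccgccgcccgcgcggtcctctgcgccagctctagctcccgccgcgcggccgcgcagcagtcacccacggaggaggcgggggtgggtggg
The closed peak in the intron of Hoxb3, chr11:96333488-96333738, holds the HOX-PBX string and, overlapping it, the posterior HOX string.
Hoxb3 intron peak: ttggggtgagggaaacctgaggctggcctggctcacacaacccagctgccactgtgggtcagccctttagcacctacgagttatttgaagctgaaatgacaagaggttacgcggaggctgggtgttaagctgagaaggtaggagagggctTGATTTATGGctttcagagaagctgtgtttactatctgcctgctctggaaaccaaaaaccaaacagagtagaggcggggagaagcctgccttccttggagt
The closed peak 38.2 kb downstream of the Hoxb1 start site, chr11:96403853-96404143, was the highest of Hoxb and holds none of the motifs.
Hoxb1 distal peak: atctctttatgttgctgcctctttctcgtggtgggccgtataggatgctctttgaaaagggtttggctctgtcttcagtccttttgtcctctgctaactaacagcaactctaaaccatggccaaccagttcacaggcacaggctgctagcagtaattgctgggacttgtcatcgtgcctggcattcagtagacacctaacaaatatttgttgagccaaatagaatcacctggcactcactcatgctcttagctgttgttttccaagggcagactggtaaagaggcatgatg
The central part of the opened peak between Hoxc10 and Hoxc11, chr15:102963565-102963864, belongs to the highest of all Hox peaks.
Hoxc10 upstream peak: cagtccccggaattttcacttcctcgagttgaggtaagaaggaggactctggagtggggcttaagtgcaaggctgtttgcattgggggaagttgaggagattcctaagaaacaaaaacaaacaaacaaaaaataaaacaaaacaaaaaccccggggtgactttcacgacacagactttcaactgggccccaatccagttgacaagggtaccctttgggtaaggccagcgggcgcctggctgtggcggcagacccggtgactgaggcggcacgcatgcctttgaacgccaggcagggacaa
The central part of the opened peak 8.78 kb downstream of the Hoxc8 start site, chr15:102999236-102999535, holds the CTCF core in capitals.
Hoxc8 downstream peak: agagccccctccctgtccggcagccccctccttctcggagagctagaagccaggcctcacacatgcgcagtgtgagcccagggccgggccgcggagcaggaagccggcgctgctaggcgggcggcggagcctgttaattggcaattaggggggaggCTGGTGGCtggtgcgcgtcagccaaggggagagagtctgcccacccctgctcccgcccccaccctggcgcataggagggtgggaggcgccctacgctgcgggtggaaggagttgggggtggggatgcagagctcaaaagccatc

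Hoxa is on chromosome 6 and spans 105 kb. Of its 7 opened peaks, 4 are described here. Hoxa4, a gene of neck and upper trunk identity, had 1 opened peak 230 bp upstream of its start site, at chr6:52191844-52192121, with a mean normalized count of 23.6. This region also lies within longer transcripts of Hoxa3 and of the antisense gene Hoxaas3. Hoxa3, which acts in the pharyngeal arches, had an opened peak in its intron at chr6:52211643-52211832, 1377 bp downstream of a start site, with a mean normalized count of 35.9. Hoxa7 had an opened peak at chr6:52221714-52221929 with a mean normalized count of 40.6. It was 3111 bp upstream of the start site in the basic annotation but 32 bp from the start of a longer Hoxa7 transcript in the comprehensive one, where it would be a promoter peak. Hoxa13, the most posterior gene of the cluster, known for limb and urogenital development, had an opened peak at chr6:52260768-52261081, centred 45 bp upstream of its start site, with a mean normalized count of 42.4.

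The Hoxa genes without a peak of their own included Hoxa2, Hoxa5, Hoxa6, Hoxa9, Hoxa10 and Hoxa11. The lung gene Hoxa5 was 7151 bp from the nearest listed peak, and Hoxa11 was the farthest, at 15115 bp. The genes from Hoxa9 to Hoxa11 lie between the opened peaks of Hoxa7 and Hoxa13.

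Hoxb is on chromosome 11 and spans 174 kb from Hoxb13 to Hoxb1. Hoxb1, which patterns the hindbrain, was the nearest gene of 4 of the 7 closed peaks, and all 4 lie beyond the anterior end of the cluster. The closest, at chr11:96372528-96372740, was 6882 bp downstream of the Hoxb1 start site and had a mean normalized count of 21.1. The other 3 lie together within 4.17 kb of sequence, 38.2 to 42.1 kb downstream of the start site. They were at chr11:96403853-96404143 with a mean normalized count of 36.1, at chr11:96407615-96407687 with 8.09 and at chr11:96407744-96408021 with 34.2. The gap between this peak and the one before it is 56 bp, and the authors listed them separately. For these 3 peaks the nearest start site of any kind was that of the pseudogene Gm11531, 11.9 to 15.8 kb away. Hoxb kept 2 closed peaks when start sites of all annotated genes were used, and 3 when only peaks within 10 kb of a Hox gene body were.

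Inside the cluster, Hoxb3, a gene of hindbrain and neck levels, had a closed peak at chr11:96333488-96333738 with a mean normalized count of 23.6, in the intron of its long transcripts and 10156 bp upstream of the nearest start site. Hoxb6 had the only closed promoter peak of the 39 genes, at chr11:96298924-96299016. It was 201 bp upstream of the start site, 93 bp wide, and had a mean normalized count of 8.73, the second lowest of the 16. This region also lies within a longer transcript of Hoxb6 and within the gene Hoxb5os. Hoxb13, known for its role in the prostate and tail bud, had a closed peak at chr11:96214556-96215018 with a mean normalized count of 36.0. It lies 20471 bp downstream, in the long stretch without protein-coding genes between Hoxb13 and Hoxb9. Hoxb2, Hoxb4, Hoxb5, Hoxb7, Hoxb8 and Hoxb9 had no peak.

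Hoxc is on chromosome 15 and spans 116 kb. Its 2 opened peaks were both away from start sites of the basic annotation. The peak at chr15:102963426-102964004, 3081 bp upstream of Hoxc10, a gene of lumbar identity, had a mean normalized count of 90.2 and a width of 579 bp, both the highest of the 16 Hox peaks. The peak at chr15:102999224-102999547, nearest to Hoxc8, a gene of thoracic and brachial identity, was 8779 bp downstream of its start site and had a mean normalized count of 28.5. In the comprehensive annotation this region lies 1129 bp from the start of a Hoxc6 transcript, so Hoxc6 would be its nearest gene. Hoxc4, Hoxc5, Hoxc6, Hoxc9, Hoxc11, Hoxc12 and Hoxc13 had no peak in the basic annotation.

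Hoxd, on chromosome 2, spans 96.8 kb, and none of its 9 genes had a listed peak. The closest listed peak was closed, 97.6 kb before the cluster and nearest to Lnpk, which encodes an endoplasmic reticulum protein. The next one on the other side was also closed, 385 kb beyond the cluster and nearest to Mtx2, which encodes a mitochondrial import protein. The stretch without a listed peak was 579 kb long, and 381 of the 80346 gaps between neighboring listed peaks were longer (0.474%), with a median gap of 9.87 kb. This share counts gaps and not sequence. Long gaps cover more sequence each, so it does not give how often a locus lies in one. Evx2, the homeobox gene next to Hoxd13, had no listed peak either.

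By position along the body axis, the anterior genes (numbers 1 to 3) had 4 opened and 5 closed peaks at 4 of 8 genes. The central genes (numbers 4 to 8) had 3 opened peaks and 1 closed peak at 4 of 15 genes. The posterior genes (numbers 9 to 13) had 2 opened peaks and 1 closed peak at 3 of 16 genes. Since the peaks of each cluster all went one way, these counts follow from how many peaks each cluster gave to a class. Among genes of the same number in different clusters, Hoxa3 had an opened and Hoxb3 a closed peak, and Hoxa13 an opened and Hoxb13 a closed peak. Hoxd3 and Hoxd13 had none.

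The Hox peaks were of ordinary height for their lists. The 9 opened peaks had a median mean normalized count of 37.0, from 14.1 to 90.2, against 40.7 in all opened peaks. The 7 closed peaks had a median of 23.6, from 8.09 to 36.1, against 25.8 in all closed peaks. Median widths were 304 bp against 300 bp for opened peaks and 251 bp against 248 bp for closed peaks. The opened promoter peaks of Hox genes were low for their kind. All opened promoter peaks had a median mean normalized count of 137, and the 4 Hox ones, from 14.1 to 42.4, stood between percentiles 4.83 and 22.9 of them. Of the 16 Hox peaks, 3 had a mean normalized count under 20, the Hoxb6 promoter peak and the narrowest Hoxb1 peak among them.

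**Figure D2:**
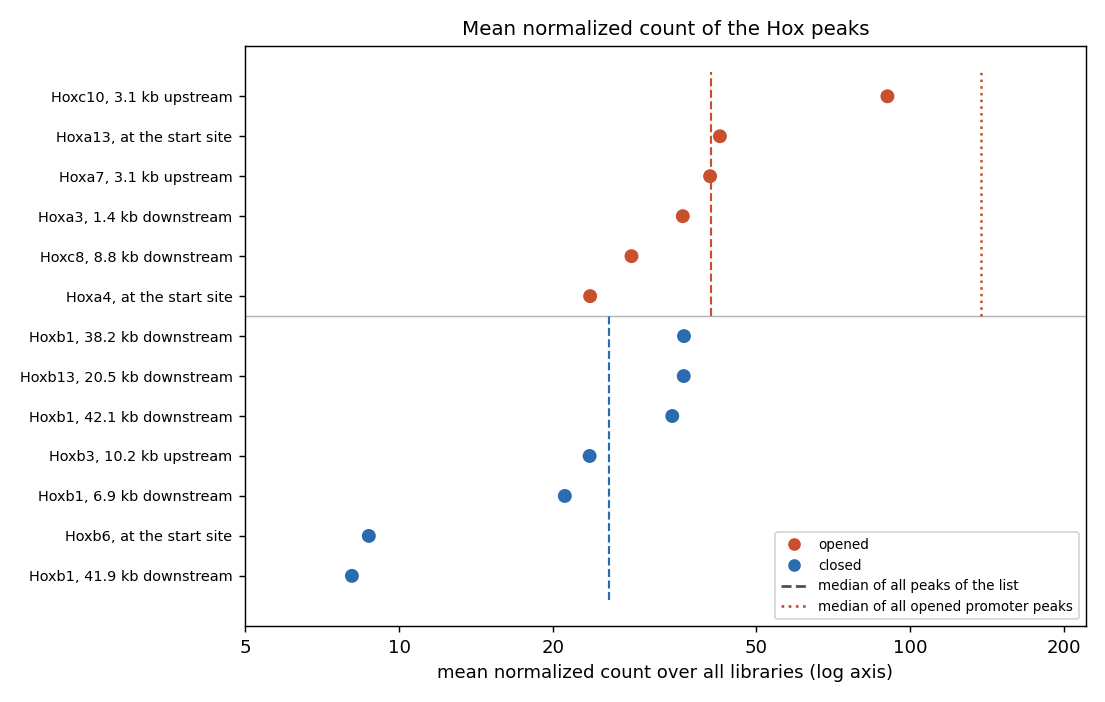
Mean normalized count of 13 of the 16 Hox peaks. Each point is 1 peak, named by its nearest gene and its distance, with opened peaks above the line and closed peaks below it. The x axis is the authors' mean normalized count over all libraries, on a log axis. Dashed lines are the medians of all opened (40.7) and all closed peaks (25.8), and the dotted line is the median of all opened promoter peaks (137). The Hoxc10 peak, at 90.2, stands highest, and the opened promoter peaks of Hoxa4 and Hoxa13 are left of the dotted line.

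In base composition the opened Hox peaks differed in value from their list. Their GC content had a median of 62.8%, from 47.4 to 77.7%, against 51.1% in all opened peaks and 62.2% in all opened promoter peaks. The ratio of observed to expected CpG dinucleotides, which is high in CpG islands, had a median of 0.762 in the opened Hox peaks against 0.248 in all opened peaks. The highest ratios were 1.04 at Hoxa4, 0.971 at Hoxa13 and 0.930 at Hoxa3. The closed Hox peaks had a median GC content of 56.8% against 48.9%, and a CpG ratio of 0.244 against 0.212, so they were closer to their list in CpG. Promoter peaks made up 5 of the 16 Hox peaks (31.25%), against 16.1% of all listed peaks, and 2 were intronic. The other 9 are called intergenic, meaning that their centre lies outside every transcript of the basic annotation. Among them, the Hoxa7 peak is centred within the annotated span of the Hoxa7 gene. The Hoxc8 peak lies within the annotated spans of Hoxc5 and Hoxc6.

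Motifs were searched as exact strings on both strands, in the central 200 bp of each peak. The 5 strings were TGANTCA for AP-1, CATTCC for TEAD (the partners of YAP1), TGATTNAT for HOX-PBX dimers, TTTATNG for HOX proteins of the posterior type and CTNGTGGC for the core of the CTCF site, where N is any base. AP-1 matched 1 of the 9 opened and none of the 7 closed Hox peaks, against 10.6% of all opened and 26.4% of all closed peaks. TEAD likewise matched 1 opened and no closed Hox peak, against 18.2% of all opened and 8.77% of all closed peaks. CTCF matched the Hoxc8 peak, against 4.37% of all opened and 3.23% of all closed peaks.

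HOX-PBX matched 2 closed Hox peaks and no opened one, against 1.77% of all opened and 6.09% of all closed peaks. In the Hoxb3 peak printed above, the HOX-PBX match (chr11:96333638-96333645) and a posterior HOX match (chr11:96333641-96333647) share 5 bases. The other match, at chr11:96407709-96407716, belongs to the search window of the 73 bp Hoxb1 peak but lies outside it, between the pair of neighboring peaks. Posterior HOX matched the Hoxa3 peak and the Hoxb3 peak, against 6.02% of all opened and 8.60% of all closed peaks, and over the whole peaks it also matched those of Hoxb13 and Hoxc10. The whole Hoxc10 peak also held a CTCF core. With 16 peaks a share moves by 6.25 percentage points with each match, so these counts describe the peaks and rank no motif. Of the Hox peaks, 4 are narrower than 200 bp, and their search window reaches beyond them.

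The direction of each cluster was set beside that of the other listed peaks around it. At Hoxa, 33 of the 36 other peaks in a 1 Mb window centred on the cluster were opened (91.7%), as were 63.6% of 407 in a 10 Mb window and 47.3% of the other peaks of chromosome 6. The Hoxa peaks belonged to an unbroken run of 19 opened peaks over 608 kb, from Snx10 to Evx1, and 16.6% of all opened peaks lie in runs at least as long. Within it, Skap2, which encodes an adaptor of Src family kinases, had 6 opened and 0 closed peaks, with a promoter peak of 689 mean normalized counts. Evx1, the homeobox gene beyond Hoxa13, had 8 opened peaks and 1 closed peak.

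At Hoxb the surroundings were mixed near the cluster and mostly opened farther out. In the 1 Mb window 24 of 38 other peaks were opened (63.2%), in the 10 Mb window 84.9% of 628, and on the whole of chromosome 11 71.2%. They belonged to a run of 8 closed peaks over 250 kb, which ends with the closed promoter peak of Skap1 (17.9 mean normalized counts), the counterpart of Skap2 next to Hoxa, known from T cells. Runs at least as long hold 46.9% of all closed peaks. The run follows a series of 23 opened peaks that ends at Atp5g1, an ATP synthase gene, whose promoter peak had 708 mean normalized counts. Beyond the run, closed peaks went on past Skap1. Within 500 kb of the cluster, all 21 closed peaks lay in a stretch of 518 kb, with 7 nearest to Hoxb genes, 5 to Skap1 and 9 to Snx11, a sorting nexin gene. The stretch held 2 opened peaks, both near Skap1 and low, at 8.46 and 8.74 mean normalized counts, while the 40 other opened peaks lay outside it. This stretch was marked out after the values were seen.

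At Hoxc, 30 of 42 other peaks in the 1 Mb window were opened (71.4%), 86.8% of 378 in the 10 Mb window and 52.4% on the whole of chromosome 15. The closest listed peaks on either side were closed, at Calcoco1 and Smug1. The 2 Hoxc peaks were therefore a run of their own, and 90.0% of all opened peaks lie in runs at least as long. At Hoxd, 1 of 8 peaks in the 1 Mb window was opened (12.5%), against 53.5% of 340 in the 10 Mb window and 53.5% on chromosome 2.

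**Figure D3:**
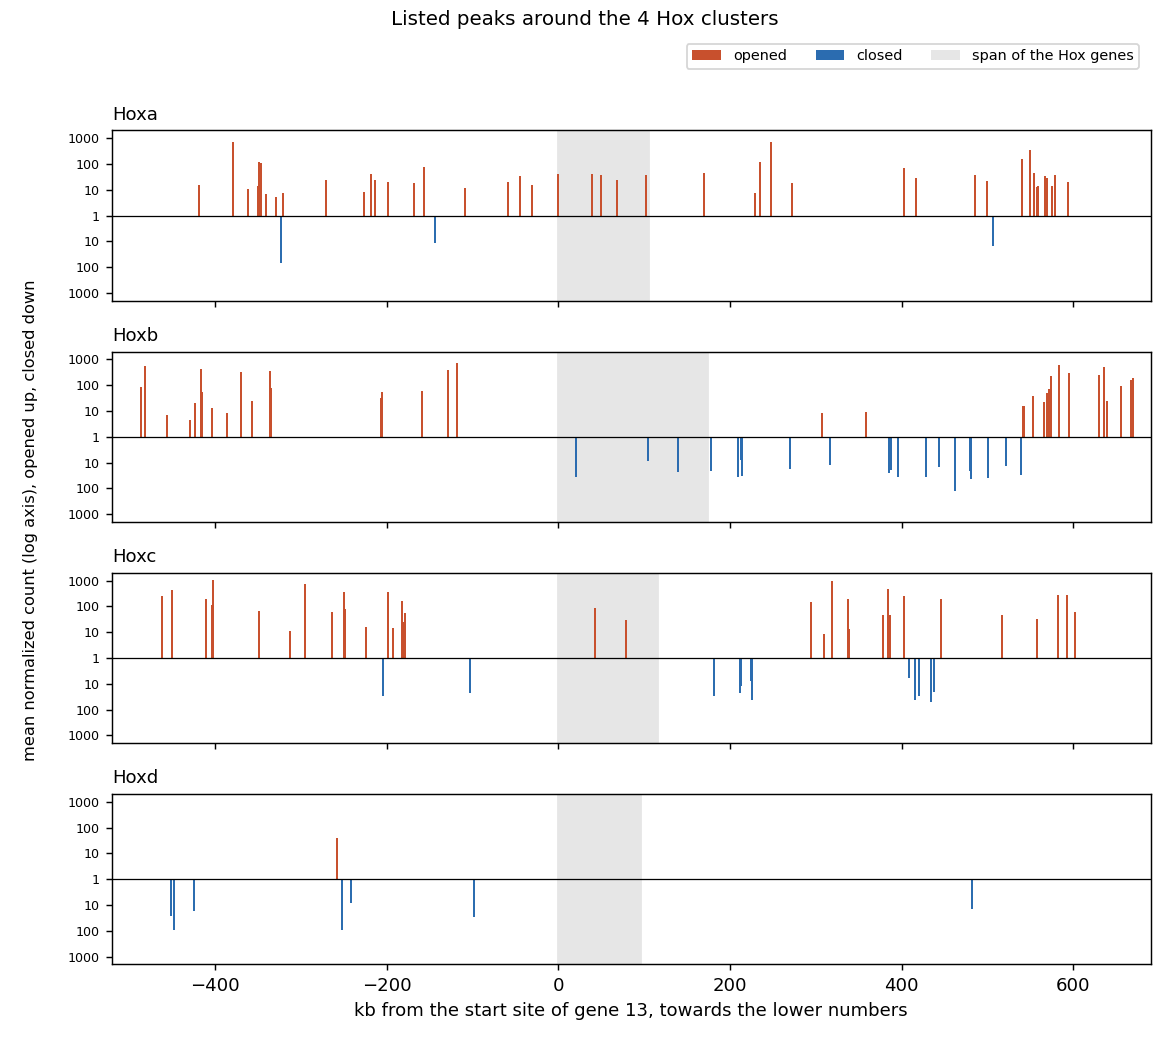
Listed peaks within 500 kb of the 4 Hox clusters. The x axis gives the distance in kb from the start site of the gene numbered 13, increasing towards the lower numbers, and the grey band is the span of the Hox genes. Each line is 1 peak, drawn up in red when opened and down in blue when closed, with its mean normalized count on a log axis that starts at 1. Hoxa lies among opened peaks (49 of 52), the 21 closed peaks around Hoxb form 1 stretch that holds 2 opened peaks, and only 8 peaks are near Hoxd.

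**Figure D4:**
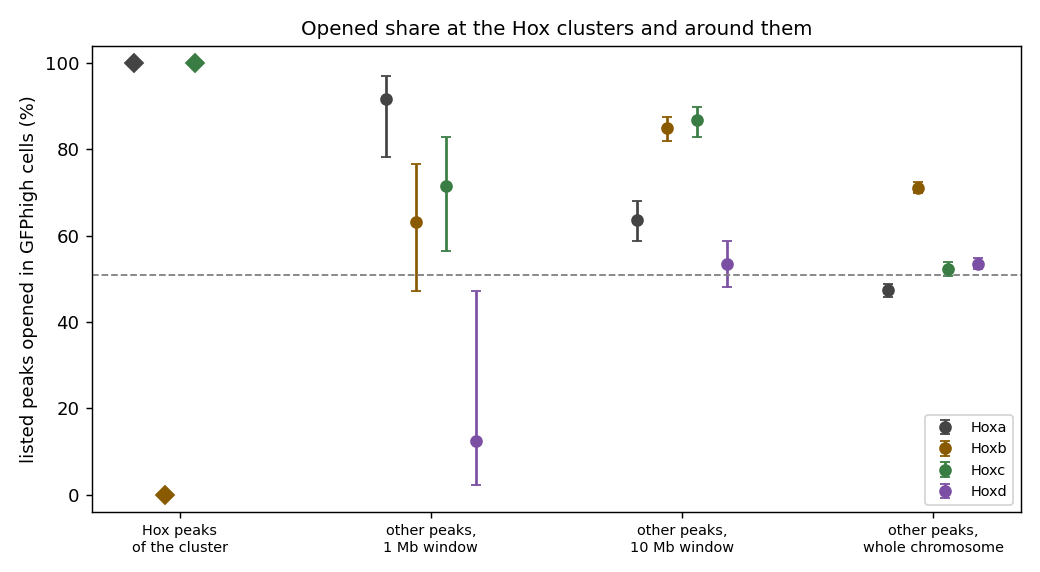
Share of opened peaks at the Hox clusters and around them. The y axis gives the percentage of listed peaks that were opened. Diamonds are the Hox peaks of a cluster (7 in Hoxa, 7 in Hoxb, 2 in Hoxc, none in Hoxd), and circles are the other listed peaks in a 1 Mb window, in a 10 Mb window and on the chromosome, with Wilson 95% intervals for counting error. The dashed line marks the 50.8% of all listed peaks. Hoxb lies at 0%, while 63.2% of the other peaks were opened in its 1 Mb window and 84.9% in its 10 Mb window.

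The known partners and regulators of Hox proteins are set beside the values over all protein-coding genes, 3.67 listed peaks per gene with 50.8% of them opened. All 9 genes of TALE cofactors had a listed peak, with 38 opened and 81 closed peaks in all, or 13.2 per gene and 31.9% opened. Meis2 had 27 closed and 0 opened peaks with a closed promoter peak, and Pknox2 had 18 closed peaks, 1 opened peak and a closed promoter peak. The cofactors were therefore divided between the lists, 2 with opened peaks alone, 1 with closed peaks alone and 6 with both.

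Of 19 genes of Polycomb complexes, 9 had opened peaks alone, 1 had closed peaks alone, 7 had both and 2 had none, with 71 opened and 24 closed peaks, or 5 per gene and 74.7% opened. Jarid2, an accessory subunit of Polycomb repressive complex 2, had 23 opened and 4 closed peaks, and the chromobox gene Cbx7 had 9 opened peaks and no closed one. Ezh2, the main methyltransferase of that complex, had 2 closed peaks. Among 5 genes that counter Polycomb silencing, of the Trithorax group and the H3K27 demethylases, there were 16 opened and 2 closed peaks, or 3.6 per gene, 12 of the opened and 1 of the closed at Kdm6b. The 8 Evx and ParaHox genes, the relatives of the clustered Hox genes, had 8 opened and 4 closed peaks. All 8 opened peaks and 1 closed peak were at Evx1, next to Hoxa, and the other 3 closed peaks were at Cdx4 and Gsx2. A listed peak was thus nearest to 3 of the 8 genes, against 66.6% of all protein-coding genes.

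Markers of the sorted cells went mostly with the labels, though not at every gene. Neuroendocrine markers had 11 opened and 65 closed peaks (14.5% opened, against 50.8% of all listed peaks). Insm1 alone had 28 of these closed peaks and 0 opened ones, and its promoter peaks were closed. Non-NE markers had 78 opened and 33 closed peaks (70.3% opened). Of these, 26 opened and 11 closed peaks were at Hes1, the gene whose reporter was sorted, with an opened promoter peak. Against this, Hey1 of the non-NE list had 1 opened and 13 closed peaks, and Syp and Dll3 of the neuroendocrine list had none. Chga of that list had 8 opened and 6 closed peaks, its promoter peaks being closed. Of markers of other cells a tumor holds, 9 leukocyte genes had 14 opened and 11 closed peaks (56.0% opened, with none at 3 genes, Itgam among them). Ptprc alone had 11 of these opened and 5 of these closed peaks. The 7 endothelial genes had 17 opened and 52 closed peaks (24.6% opened), with peaks at every gene, 2 of the opened and 23 of the closed at Cdh5. The 8 fibroblast genes had 10 opened and 13 closed peaks (43.5% opened, with none at 4, Tcf21 among them). Col1a1 had 7 of these opened peaks and 0 closed ones. These lists had 2.78, 9.86 and 2.88 peaks per gene, against 3.67 over all protein-coding genes. The tumor cells were stained before the sort for CD45, CD31 and TER-119, surface markers of leukocytes, endothelium and erythroid cells. The part of other cells in the Hox peaks was not tested.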

How the data were processed

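ATAC-seq of GFPhigh and GFPneg SCLC cells was read as paired reads, which the authors trimmed, aligned to mm10 with Bowtie2 (version 2.3.4.1 in the submitters' processing notes) and freed of duplicates with Samtools. The authors called narrow peaks with MACS2, merged the peaks of all samples, counted reads with bedtools and compared the groups with DESeq2 (version 1.28.1), with limits of 0.001 on the adjusted p and of 1 on the size of the log2 fold change. The deposited value used here is a signal, namely each peak's count after division by DESeq2's size factors, averaged by the authors across the libraries. The other 5 deposited columns hold the fold change, its standard error, the statistic and the p-values of that comparison, and were not used. The 16 runs were grouped by the labels' GFP status. How lanes and the technical replicate entered the comparison is not given in the sources used here.

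Peaks were placed by their centre on the basic GENCODE M21 annotation of GRCm38 and assigned to the nearest protein-coding start site, with coordinates given 1-based. Sequences, GC content and motif matches were read from the RefSeq GRCm38.p6 genome, within which all peaks lie. No sequences are given for the start-site peaks of Hoxa4 and Hoxb6. The members and gene lists were chosen with earlier results of these data known. Peaks named are those highest or widest in each cluster and every promoter peak, and the remaining ones, few in number, are named as well, except that results of some genes are not reported here. Lists are described by counts, with no test, because the lists hold no value per library and the columns of the authors' test were not used, and Wilson intervals (95%) cover counting error only. The assignment of peaks to the nearest start site was tested on simulated positions. The alternatives changed the assignment of peaks, the promoter distance, merging of peaks within 100 bp, limits on the mean normalized count and width, and the motif window. The comprehensive annotation was added after the data were seen. Python 3.11.15, numpy 2.4.6, pandas 2.3.3, scipy 1.17.1, pysam 0.24.0 and matplotlib 3.10.9 were used.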

Additional observations from a re-analysis of the deposited data

How the results depend on the processing

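The alternatives kept all or some of the same peaks, and since the peaks of each cluster all went one way, its direction was fixed by that and is no sign of stability. Leaving out the shares of single clusters, 31 of 35 recomputed values stayed within the 95% interval of the reported value, or within 1.5 times a reported count. The other 4 came from alternatives that leave few peaks. With a mean normalized count of at least 50, 1 Hox peak remained, that of Hoxc10, so the opened share was 100% and the promoter share 0%. With the nearest start site of any annotated gene, noncoding ones included, 8 Hox peaks remained, 6 opened and 2 closed. The opened share ranged from 56.25 to 75% over the alternatives that left at least 8 peaks, and within 10 kb of the gene bodies, where 8 of 11 peaks were opened, it was 72.7%. The comprehensive annotation, chosen after seeing the data, kept the 16 peaks and gave a promoter share of 37.5% in place of 31.25%. Hoxd has no share under any of them, since it had no peak. No paired analysis was possible because the lists hold no values per library, and leaving out a replicate was not run for the same reason. Limits on the authors' p-value or fold change were not run, since those columns were not used. The unknown depth limits what can be said of genes without a listed peak.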
